A study of Mus musculus with 4 samples.

Results

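Gpx3, Sod3, Sod1, Sod2, Gpx1 and Cat encode the main enzymes that clear superoxide and hydrogen peroxide, and their transcripts were followed through 4 spatial transcriptomes of the injured mouse Achilles tendon. They were taken by symbol from the 32285 genes of the deposited tables, so 6 genes of 32285 are described here. All 6 were found once and had enough counts to enter every comparison. Gpx3 and Sod3 act outside the cell, and the other 4 act in the cytosol, the mitochondria or the peroxisome.

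Superoxide is made by the respiratory chain and by the oxidase of phagocytes, and superoxide dismutases turn it into hydrogen peroxide. Glutathione peroxidases, some of which carry selenium, and catalase then turn the peroxide into water. Injured tendon and muscle hold both sources, in mitochondria-rich fibres and in macrophages, while much of the tendon is extracellular matrix that cells supply with secreted enzymes.

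Each section was cut at 10 µm from the left Achilles tendon, 14 days after a 0.5 mm punch wound placed 2 mm from the heel bone, in male and female mice of 12 weeks. The WT group had 2 sections from TrkA WT mice labelled as controls, and the F592A group had 2 sections from mice with TrkA F592A that were given 1NMPP1. The receptor TrkA binds nerve growth factor on sensory and sympathetic nerve cells, and with the F592A change its kinase can be blocked by the small molecule 1NMPP1. The design pooled 4 mice per genotype, names no Cre or promoter, does not tie sections to animals and does not say whether WT mice received the drug. Genotype and drug therefore cannot be told apart, and the p-values rest on the spread among sections alone, which may hold technical and animal differences.

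The arrays count RNA molecules by unique molecular identifiers (UMIs) for each gene in each spot, and a spot covers several cells. The 4 sections held 30154873 to 43957617 UMIs over 2027 to 3047 tissue spots, with a median of 5468 to 7932 UMIs per kept spot. The 6 genes gave 2096 to 27944 UMIs each per section, so counting error was small against the larger differences between sections. The library of WT 2 stood apart in Xist, the RNA made by the inactive X chromosome of female cells. Xist gave 4207 UMIs in WT 2 and 7 to 12 in the other 3 sections. For the 6 genes, values without WT 2 are therefore printed beside the results they change. Judged by Xist, WT 2 held female tissue and the other 3 sections did not, so sex was not balanced between the groups. The part of sex in the group differences was not tested. Spot barcodes mark array positions, and 725 positions lay under tissue in all 4 sections. The tendon markers Tnmd and Scx were present in every section, at 348 to 1246 and 87.3 to 130 counts per 1000000 UMIs (CPM).

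Spots were sorted into tissue classes by marker lists that hold none of the 6 enzymes, and 7 classes had at least 50 spots in every section. Tendon spots (1218) were led by Cilp2, Kera and Fmod, scar spots (936) by Mest and Postn, adventitial spots (1267) by Prg4, Pi16 and Ecm1, and fast muscle spots (2082) by Myh4 and Pvalb. Epidermis spots (630) were led by Krt77 and Lor, and macrophage spots (1552) by Gpnmb and Ccl8. The class of the cartilage list (1418 spots) was led by Sox9, but keratin genes such as Krt6a, Krt17 and Krt79 were among its leading genes, against its name, so it is called the Sox9-led spots. Slow muscle and adipose spots had as few as 46 and 29 spots in a section, and only their levels are given. The classes are mixtures, since in many spots another list scored within 20% of the first. This held for 563 of the 1218 tendon spots, 514 of the 1267 adventitial spots and 211 of the 2082 fast muscle spots.

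The promoters of 3 members are shown because the results turn on them or because they contrast: Gpx3 carried the difference between groups that passed the test, Sod2 the largest rise in a tested tissue class over the other spots, and Sod1 had nearly the same level in most tissues. Each run is the 250 bases before the RefSeq gene start in GRCm38.p6, printed 5′ to 3′ on the gene's strand, which is the plus strand for all 3. They lie at chr11:54902604-54902853, chr17:13007589-13007838 and chr16:90220512-90220761. Capitals mark matches, on either strand, to the GC box (GGGCGG), the CCAAT box (CCAAT), the TATA box (TATAAA) and the core of the antioxidant response element (TGACNNNGC). GC box matches that overlap one another form a single run of capitals.
Gpx3: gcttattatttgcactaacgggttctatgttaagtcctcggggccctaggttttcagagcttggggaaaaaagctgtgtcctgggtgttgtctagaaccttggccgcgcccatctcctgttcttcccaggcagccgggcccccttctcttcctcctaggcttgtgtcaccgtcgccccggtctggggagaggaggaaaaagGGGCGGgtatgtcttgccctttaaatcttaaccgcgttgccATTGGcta
Sod2: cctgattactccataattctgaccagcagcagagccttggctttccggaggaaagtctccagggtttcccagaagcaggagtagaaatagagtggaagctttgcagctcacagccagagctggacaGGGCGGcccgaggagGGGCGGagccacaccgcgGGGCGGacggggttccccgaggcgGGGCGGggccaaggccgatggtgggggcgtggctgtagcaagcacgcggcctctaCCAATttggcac
Sod1: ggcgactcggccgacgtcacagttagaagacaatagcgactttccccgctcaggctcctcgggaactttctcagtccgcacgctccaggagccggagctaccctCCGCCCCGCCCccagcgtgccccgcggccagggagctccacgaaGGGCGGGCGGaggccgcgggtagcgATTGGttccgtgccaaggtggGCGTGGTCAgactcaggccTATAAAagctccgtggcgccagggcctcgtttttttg
The Gpx3 window held 1 GC box and 1 CCAAT box, and the Sod2 window held 4 GC boxes and 1 CCAAT box. The Sod1 window held 4 GC boxes and 1 match to each of the other 3 motifs. In windows not printed, Cat held 1 GC box and 4 CCAAT boxes and Gpx1 matched none of the motifs, and Sod3 is named only. Of 32851 mouse promoters of the same length, 32.7% held a GC box, 33.9% a CCAAT box, 12.4% a TATA box and 10.2% the response element core, so each match is a description of common letters.

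The first comparison asks whether the enzymes differ at the injury site when TrkA signalling is blocked. In whole sections the secreted enzymes moved in opposite directions in value, Gpx3 lower and Sod3 higher in F592A, while the 4 intracellular enzymes had log2 fold changes of −0.24 to 0.27. None of the 6 passed the quasi-likelihood test of edgeR, with p adjusted by Benjamini-Hochberg over 16347 genes, which called 0.0795% of all genes. At an unadjusted p under 0.05 there were 2 of the 6, Gpx3 and Sod3, and DESeq2 called 1, Sod3 (adjusted p = 0.00376). Both criteria passed more of all genes there than edgeR's adjusted p, so these counts are not read as results about the members. The lower level of a transcript in a section can mean fewer cells that make it or less of it per cell, and these cannot be told apart.

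Gpx3, the selenium enzyme that is the glutathione peroxidase of plasma and extracellular fluid (ENSMUSG00000018339, chromosome 11, 54902854 to 54910387 in GRCm38.p6), was at 551 and 927 CPM in WT 1 and WT 2 and at 340 and 252 CPM in F592A 1 and F592A 2. Both F592A sections lay below both WT sections, and WT 2 was the highest by far. The mean was 739 ± 265 CPM in WT and 296 ± 62.0 in F592A (SD, n = 2 each), a log2 fold change of −1.35 ± 0.31 (SE; edgeR's adjusted p = 0.236). Without WT 2 it was −0.88 ± 0.21 (edgeR's adjusted p = 0.0837), and without WT 1 −1.70 ± 0.21 (edgeR's adjusted p = 0.00548), so the size of the difference rests on which WT section stands for the group.

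Sod3, the extracellular superoxide dismutase that binds heparan sulfate in the matrix (ENSMUSG00000072941, chromosome 5, 52363804 to 52369738), was at 120 and 156 CPM in WT 1 and WT 2 and at 223 and 252 CPM in F592A 1 and F592A 2. The groups did not overlap, in the opposite order to Gpx3. The mean was 138 ± 26.1 CPM in WT and 237 ± 20.6 in F592A (SD, n = 2 each), a log2 fold change of 0.75 ± 0.17 (edgeR's adjusted p = 0.234). Leaving out WT 2 gave 1.00 ± 0.15 (edgeR's adjusted p = 0.0147). The ratio of Gpx3 to Sod3 counts was 4.62 in WT 1 and 5.92 in WT 2, against 1.53 in F592A 1 and 1.00 in F592A 2. Since UMIs are not scaled for how well each transcript is captured, the ratio is read between sections and not as a ratio of molecules.

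**Figure D1:**
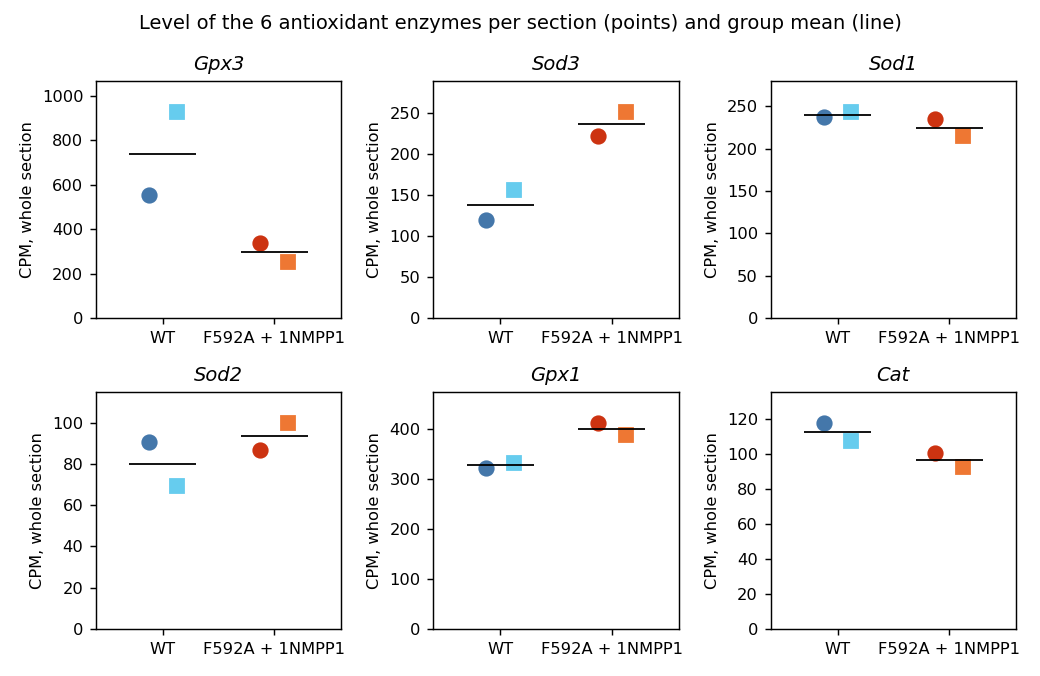
CPM of each enzyme in the 4 whole sections (vertical axis from 0; circles are replicate 1 and squares replicate 2 of each group, and the line is the mean of the 2 sections). Gpx3 runs from 252 to 927 CPM with both F592A sections at the bottom, Sod3 from 120 to 252 CPM with both at the top, and Sod1 stays between 215 and 243 CPM.

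The intracellular dismutases differed less. Sod1, the copper and zinc enzyme of the cytosol (ENSMUSG00000022982, chromosome 16, 90220762 to 90226333), was at 237 and 243 CPM in WT 1 and WT 2 and at 235 and 215 CPM in F592A 1 and F592A 2. In plain CPM the groups did not overlap but lay close together, with a log2 fold change of −0.12 ± 0.12 (edgeR's adjusted p = 0.756). With the trimmed-mean scaling of the test they overlapped, at 234 and 251 in WT and 238 and 209 in F592A. Sod2, the manganese enzyme of the mitochondrial matrix (ENSMUSG00000006818, chromosome 17, 13007839 to 13018119), was at 90.7 and 69.5 CPM in WT and at 86.9 and 100 CPM in F592A. These groups overlapped, and the log2 fold change was 0.20 ± 0.14 (edgeR's adjusted p = 0.629).

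The enzymes that remove peroxide inside the cell had small differences of opposite sign. Gpx1, the glutathione peroxidase of the cytosol (ENSMUSG00000063856, chromosome 9, 108339080 to 108340342), was at 321 and 331 CPM in WT and at 412 and 387 CPM in F592A. Both F592A sections were higher, with a log2 fold change of 0.27 ± 0.12 (edgeR's adjusted p = 0.479). Cat, the catalase of peroxisomes (ENSMUSG00000027187, chromosome 2, 103453904 to 103485153), was at 118 and 107 CPM in WT and at 100 and 92.5 CPM in F592A. Both F592A sections were lower, with a log2 fold change of −0.24 ± 0.11 (edgeR's adjusted p = 0.463). In plain CPM, 5 members had groups that did not overlap, Gpx3, Sod1 and Cat downward and Sod3 and Gpx1 upward, where 17.9% of genes with a mean of at least 20 CPM had both F592A sections below both WT sections and 26.5% had both above. Of these members, Sod1 overlapped once scaled by trimmed means.

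**Figure D2:**
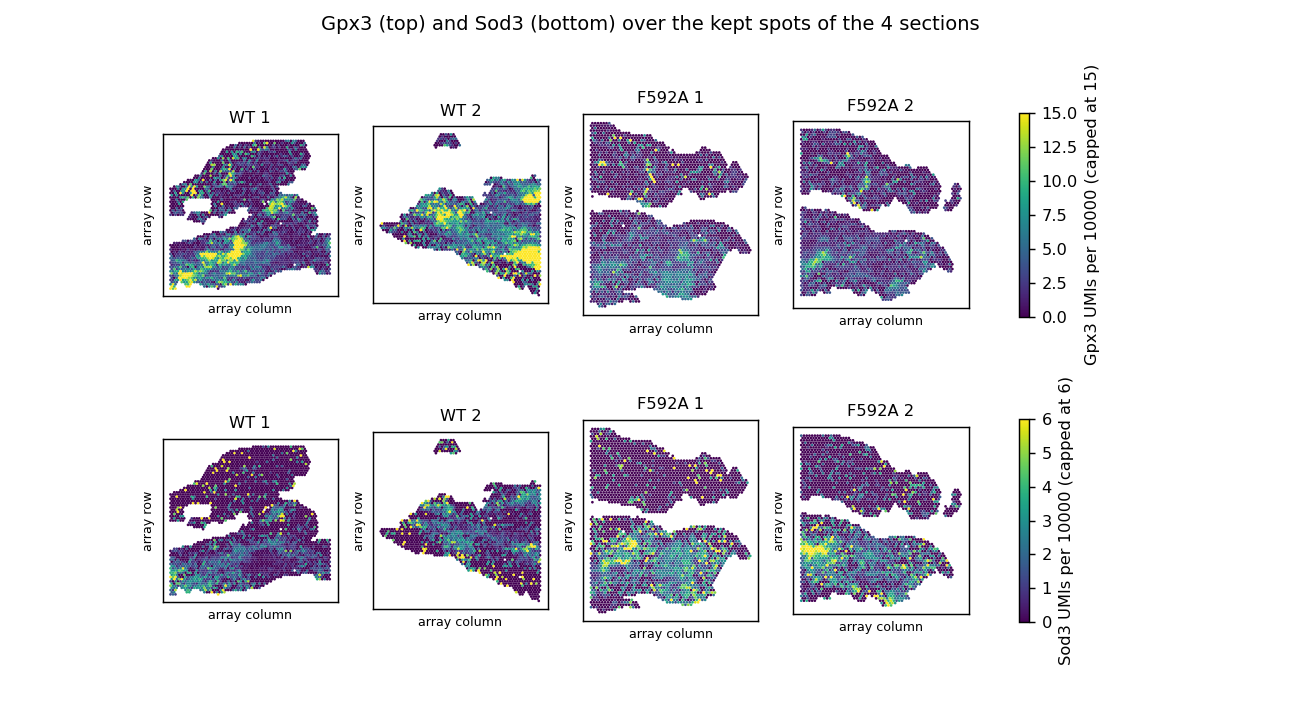
Gpx3 (top row) and Sod3 (bottom row) in the kept spots of each section, drawn at their array row and column and coloured by UMIs per 10000 UMIs of the spot, capped at 15 for Gpx3 and 6 for Sod3. The bright fields of Gpx3 in WT 1 and WT 2 are dim in both F592A sections, and the bright fields of Sod3 lie in the F592A sections.

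The sections differ in their tissue makeup, so the same comparison was made within each class. Tendon spots made up 8.84% of WT 1, 27.4% of WT 2, 8.57% of F592A 1 and 5.50% of F592A 2, and fast muscle spots 17.8%, 11.2%, 23.7% and 23.3%. Regenerating muscle spots made up 9.69%, 2.57%, 0.176% and 0%, and nerve spots 4.70%, 1.33%, 0.635% and 0.473%. In WT 1 and WT 2 the regenerating muscle spots held Sod3 at 60.4 and 73.8 CPM and Gpx3 at 203 and 529 CPM. They count in the whole sections and among the other spots of each class, and their part in the class by group results was not tested. Of 42 tests (6 genes in 7 classes) 1 passed, Gpx3 in adventitial spots, which was lower in F592A. At an unadjusted p under 0.05 there were 18, of which 6 were tests of Gpx3 and 6 of Sod3, and DESeq2 called 7. The share of all genes under those criteria is not given for every class, so the counts are not read as results about the members. Among all genes tested, edgeR called 0.21% in tendon, 0.0976% in scar, 0.0991% in adventitial, 0.255% in fast muscle and 0.0287% in macrophage spots. It called 0% in epidermis and in Sox9-led spots, where 738 and 860 genes had an unadjusted p under 0.05 and DESeq2 called 12 and 33.

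In adventitial spots, a class set by its markers and not by its place in the section, Gpx3 was at 579 and 620 CPM in WT 1 and WT 2. In F592A 1 and F592A 2 it was at 247 and 181 CPM. The WT sections were close to each other here and both stood well above F592A. Gpx3 fell with a log2 fold change of −1.49 ± 0.17 (edgeR's adjusted p = 0.0493), from 599 ± 28.9 to 214 ± 46.4 CPM (SD, n = 2 each). The call stands just under the threshold of 0.05. It held under 14 of 15 alternatives, among them the fits without each section in turn (−1.74 to −1.27, and −1.44 ± 0.21 without WT 2), and the fit with a replicate block ended it. A fall of Gpx3 in Ecm1-led connective tissue of these sections was known when the gene was chosen, so the call is not independent support. In the same spots the endothelial list made up 0.0307% to 0.0312% of UMIs in WT and 0.0212% to 0.0254% in F592A, with 3 of 5 markers below both WT sections. The adipose list was at 0.00624% to 0.00679% and 0.00964% to 0.0392%, with 4 of 6 markers higher, and the adventitial list itself overlapped between groups. The part of these markers in the fall was not tested.

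Tendon spots had the largest Gpx3 difference in value, at 760 and 1274 CPM in WT 1 and WT 2 and at 394 and 269 CPM in F592A 1 and F592A 2. The log2 fold change was −1.69 ± 0.29 (edgeR's adjusted p = 0.1003), or −1.22 ± 0.22 without WT 2 (edgeR's adjusted p = 0.0567). Sod3 was at 151, 160, 251 and 323 CPM in the same order, with a log2 fold change of 0.81 ± 0.14 (edgeR's adjusted p = 0.0977). Neither passed in this fit of all 4 sections, but both passed with DESeq2 (adjusted p = 0.0433 for Gpx3 and 0.000974 for Sod3) and in edgeR with no filter on low counts. Without WT 1 Gpx3 passed (−2.03 ± 0.22, edgeR's adjusted p = 0.00811), and without F592A 1 Sod3 passed (0.95 ± 0.15, edgeR's adjusted p = 0.0398). In these spots the tendon list itself was at 0.891% to 0.896% of UMIs in WT and 0.751% to 0.791% in F592A, with 6 of 7 markers lower, and the fast muscle list was at 0.303% to 0.448% and 0.559% to 0.697%, with 7 of 8 higher. The adventitial list was at 0.16% and 0.18% of UMIs in WT and 0.20% and 0.26% in F592A. The median spot held 16310 UMIs in WT 1 against 9065 to 9860 in the other 3 sections. The part of these differences in the result was not tested.

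Scar spots, the Postn-rich repair tissue, gave Gpx3 at 627, 1012, 480 and 374 CPM in WT 1, WT 2, F592A 1 and F592A 2, and Sod3 at 81.9, 133, 206 and 181 CPM. Both genes kept groups apart there, at −0.96 ± 0.24 for Gpx3 (edgeR's adjusted p = 0.260) and 0.86 ± 0.22 for Sod3 (edgeR's adjusted p = 0.264) as log2 fold changes. Without WT 2 they were −0.55 ± 0.18 (edgeR's adjusted p = 0.151) and 1.24 ± 0.16 (edgeR's adjusted p = 0.00138), and without WT 1 Gpx3 was at −1.28 ± 0.18 (edgeR's adjusted p = 0.00356). With no filter on low counts both passed in scar spots, and Sod3 also by DESeq2 (adjusted p = 0.0499). Macrophage spots had the same directions, with Gpx3 at 732, 845, 324 and 208 CPM and Sod3 at 170, 150, 253 and 276 CPM in the order of sections. The log2 fold change was −1.53 ± 0.27 for Gpx3 (edgeR's adjusted p = 0.322) and 0.75 ± 0.14 for Sod3 (edgeR's adjusted p = 0.331), and without WT 1 Gpx3 passed (−1.67 ± 0.28, edgeR's adjusted p = 0.0230). Both passed in macrophage spots by DESeq2 (adjusted p = 3.16e-06 and 0.00184) and with no filter. The adventitial list made up 0.1495% and 0.1988% of UMIs in macrophage spots of WT and 0.207% and 0.2115% in those of F592A. In scar spots it overlapped between groups, at 0.09108% and 0.1563% in WT and 0.1515% and 0.1423% in F592A. The part of this list in the Sod3 values was not tested.

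Sox9-led spots had Gpx3 at 691 and 903 CPM in WT and 362 and 392 CPM in F592A, and Sod3 at 140 and 180 CPM against 261 and 257 CPM. In epidermis spots Gpx3 was at 152 and 216 CPM in WT and 50.2 and 82.0 CPM in F592A, while Sod3 overlapped, at 68.0 and 118 CPM in WT and 69.9 and 67.8 CPM in F592A. None of these 4 passed in edgeR's fit of all sections (adjusted p of 0.397 to 0.750). Gpx3 passed in epidermis spots with no filter on low counts (edgeR's adjusted p = 0.00312) and in Sox9-led spots by DESeq2 (adjusted p = 0.00328). The adventitial list was at 0.1049% and 0.1508% of UMIs in Sox9-led spots of WT and 0.1744% and 0.1518% in those of F592A. In epidermis spots it was at 0.0675% and 0.0785% in WT and 0.0869% and 0.0888% in F592A. Its part in the Sod3 values was not tested. Epidermis sums were small, with 21 to 46 UMIs of each member in WT 2, so counting error also limits the values there. Gpx3 passed in both classes when either WT section was left out, at −1.34 and −0.84 in Sox9-led and −1.82 and −1.29 in epidermis spots (without WT 1 and WT 2 in turn), and Sod3 passed in Sox9-led spots without WT 2 (0.92 ± 0.19, edgeR's adjusted p = 6.53e-05). In adventitial spots Sod3 was at 231 and 232 CPM in WT and 300 and 428 CPM in F592A, with a log2 fold change of 0.65 ± 0.17 (edgeR's adjusted p = 0.391, or 0.000564 with no filter). Over the 7 classes, Gpx3 had both F592A sections below both WT sections in 6 and overlapped in fast muscle. Sod3 had both F592A sections above in 5, below in fast muscle, and overlapped in epidermis. Over the same classes 17.9% of gene and class pairs had both F592A sections below and 25.1% had both above. These counts reuse the same 4 sections and are no independent repeats.

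**Figure D3:**
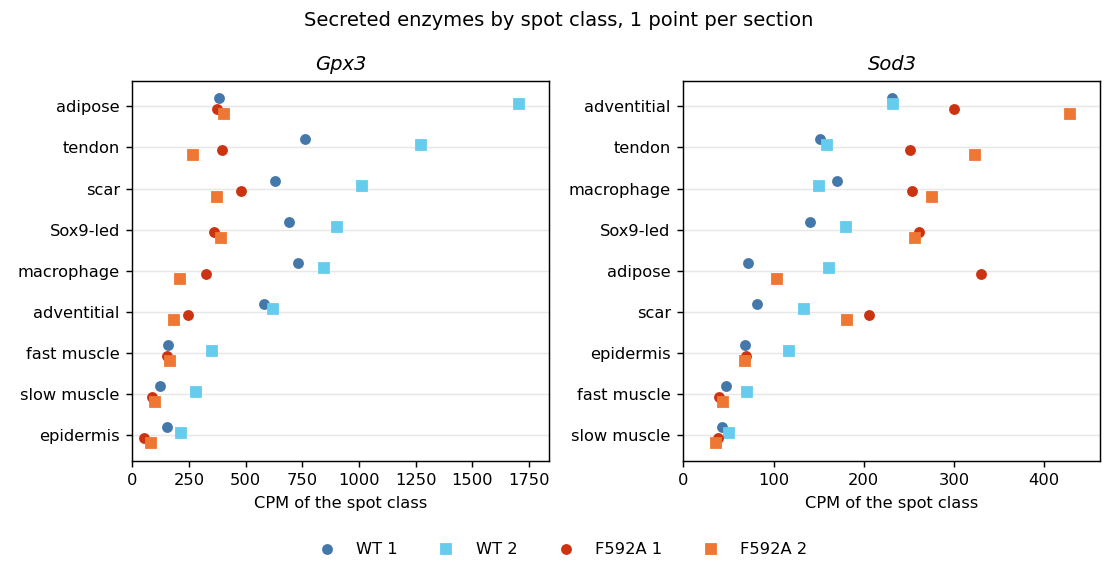
Gpx3 (left) and Sod3 (right) CPM of each section (points) in 9 spot classes (rows, ordered by their mean over the 4 sections; horizontal axis from 0). In tendon, scar, macrophage, adventitial and Sox9-led spots the F592A points lie to the left for Gpx3 and to the right for Sod3, and adipose spots of WT 2 reach 1704 CPM of Gpx3.

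Within classes, 0 tests of the 4 intracellular enzymes passed edgeR's test, with 6 at an unadjusted p under 0.05 and 0 called by DESeq2. Without WT 2, Sod1 and Cat passed as lower in epidermis spots (−0.77 ± 0.23 and −0.82 ± 0.25, edgeR's adjusted p = 0.0210 and 0.0188). Sod2 in tendon spots was at 55.7 and 55.6 CPM in WT and 78.4 and 75.3 CPM in F592A, with a log2 fold change of 0.40 ± 0.12 (edgeR's adjusted p = 0.266). In fast muscle spots Sod2 was at 187 and 159 CPM in WT and 212 and 237 CPM in F592A (0.40 ± 0.17, edgeR's adjusted p = 0.395). Gpx1 in adventitial spots was at 420 and 423 CPM in WT and 520 and 556 CPM in F592A (0.35 ± 0.12, edgeR's adjusted p = 0.493). Cat in scar spots was at 135 and 130 CPM in WT and 108 and 94.8 CPM in F592A (−0.40 ± 0.12, edgeR's adjusted p = 0.331). Sod1 in tendon spots spanned 230 to 237 CPM over all 4 sections and overlapped between groups in 6 of 7 classes.

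Groups stayed apart for Sod2 in 3 classes, upward in each, for Cat in 3, downward in each, and for Gpx1 in 4 upward and 1 downward, where 25.1% of all gene and class pairs had both F592A sections above and 17.9% below. The downward class of Gpx1 was fast muscle, at 140 and 170 CPM in WT and 134 and 128 CPM in F592A.

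**Figure D4:**
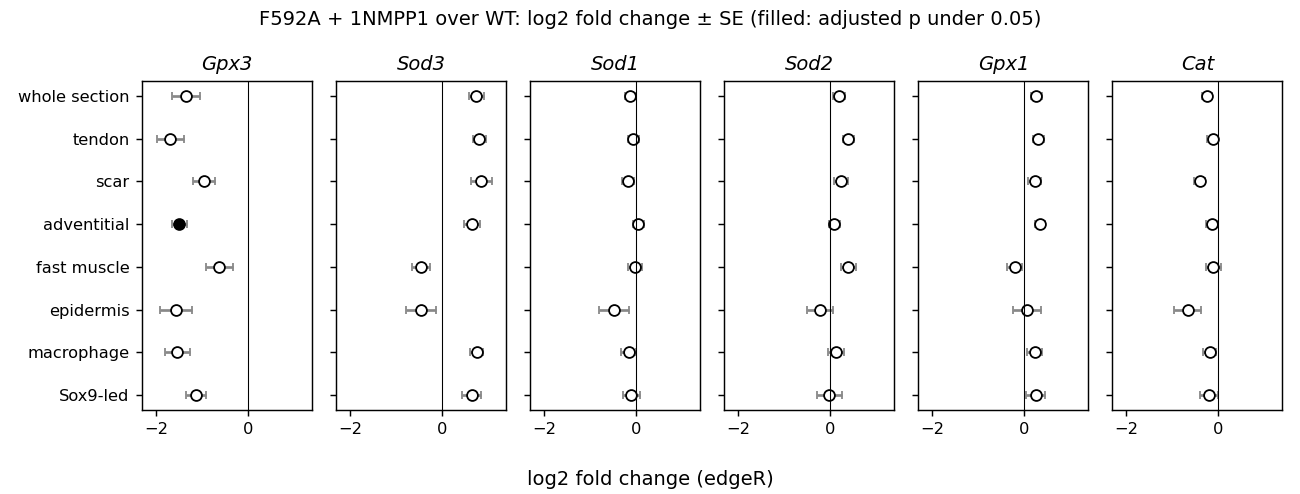
Log2 fold change of F592A over WT with its SE (edgeR; horizontal axis, 0 marked by a line) for each enzyme (panels) in whole sections and 7 spot classes (rows). A filled point passed the adjusted p threshold of 0.05, which is Gpx3 in adventitial spots at −1.49. Sod3 lies right of 0 in every row except fast muscle and epidermis.

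Whether a tissue class departs from the rest of its section differently in the 2 groups was tested by the class by group term. It passed for Sod3 and for Gpx3 in fast muscle spots, 2 of 42 tests, with 7 at an unadjusted p under 0.05. The 7 are not read as a result, since the share of all genes at that threshold is not given for every class. Sod3 in fast muscle spots was at 46.8 and 70.9 CPM in WT 1 and WT 2 and at 39.7 and 43.6 CPM in F592A 1 and F592A 2. In the other spots of the same sections it was at 125, 163, 241 and 279 CPM. Values in muscle lay lower in F592A while those in the other tissue lay higher, and the difference of the differences was −1.27 ± 0.17 on the log2 scale (edgeR's adjusted p = 0.000548). It passed under all 13 alternatives tried, from −1.33 to −1.22, the fit without WT 2 (−1.24 ± 0.22) among them.

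Gpx3 in fast muscle spots was at 158, 351, 154 and 164 CPM, and in the other spots at 582, 972, 358 and 264 CPM, in the same order. In muscle 3 sections were at nearly the same level, and WT 2 stood above them. The term was 0.79 ± 0.19 (edgeR's adjusted p = 0.0280), and it was lost without WT 1 (0.68 ± 0.21, edgeR's adjusted p = 0.158) and without F592A 2 (0.53 ± 0.26, edgeR's adjusted p = 0.538). It was also lost with scaling by total UMIs alone (0.73 ± 0.23, edgeR's adjusted p = 0.140) and with a stricter class ratio of 0.4 (edgeR's adjusted p = 0.0566). Within fast muscle alone, the log2 fold change was −0.62 ± 0.29 for Gpx3 (edgeR's adjusted p = 0.458), 0.00 ± 0.17 without WT 2, and −0.45 ± 0.19 for Sod3 (edgeR's adjusted p = 0.406), −0.18 ± 0.20 without WT 2. Without WT 1 both passed, at −1.06 ± 0.16 (edgeR's adjusted p = 0.00155) and −0.68 ± 0.18 (edgeR's adjusted p = 0.0444), and Gpx3 passed with no filter (edgeR's adjusted p = 0.0384). The ratio of Gpx3 to Sod3 counts in fast muscle was 3.37 and 4.96 in WT and 3.89 and 3.77 in F592A, against 2.50 and 2.67 in WT and 0.822 and 0.424 in F592A in adventitial spots.

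The fast muscle spots of F592A held less of the scar and tendon lists. The scar list made up 0.240% to 0.347% of their UMIs in WT and 0.0962% to 0.166% in F592A, with 7 of 7 markers lower, and the tendon list 0.116% to 0.226% and 0.0545% to 0.0963%, with 6 of 7 lower. The adventitial list overlapped between groups, at 0.055% and 0.086% in WT and 0.064% and 0.058% in F592A. The cartilage list overlapped too. The erythroid list was at 0.669% to 0.713% and 0.254% to 0.415%, with 4 of 5 lower, and the epidermis list at 0.0325% to 0.108% and 0.181% to 0.362%, with 6 of 8 higher. The part of these lists in the 2 results was not tested. The background of the class by group test was 2.55% of genes in fast muscle, 0.569% in adventitial, 0.264% in scar, 0.165% in tendon, 0.0583% in Sox9-led, 0.00646% in macrophage and 0% in epidermis spots (724 genes there had an unadjusted p under 0.05, and DESeq2 called 0). Fast muscle was the class in which most genes passed, so 2 of 6 members stand above a raised background. In tendon and scar spots the Gpx3 term was −0.61 ± 0.13 (edgeR's adjusted p = 0.132) and 0.53 ± 0.13 (edgeR's adjusted p = 0.193), and in epidermis spots the Sod3 term was −1.23 ± 0.35 (edgeR's adjusted p = 0.597).

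The 6 enzymes were spread differently over the tissues, and 24 of 42 tests of a class against the other spots of its section passed, 10 higher and 14 lower. The classes differ in many genes: edgeR called 57.7% of all genes in fast muscle, 43.2% in epidermis, 40.9% in scar, 22.2% in macrophage, 19% in tendon, 15.5% in Sox9-led and 11.7% in adventitial spots. A call in muscle, epidermis or scar is therefore common. The sizes say more than the counts, though those in fast muscle move with the scaling.

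Sod2 was highest in muscle. In fast muscle spots it was at 187, 159, 212 and 237 CPM in WT 1, WT 2, F592A 1 and F592A 2, against 83.3, 62.5, 74.7 and 81.9 CPM in the other spots. Every section had more in muscle, and the log2 fold change was 2.01 ± 0.11 (edgeR's adjusted p = 7.34e-09). Scaled by total UMIs alone, as CPM are, it was 1.39. Slow muscle spots were higher still, at 228, 225, 371 and 345 CPM, above fast muscle in 4 of 4 sections. The lowest class was scar, at 51.7, 38.4, 52.8 and 58.3 CPM (−0.86 ± 0.06, edgeR's adjusted p = 1.41e-06), and Sod2 was also lower in tendon (−0.39 ± 0.09), adventitial (−0.35 ± 0.07) and macrophage spots (−0.42 ± 0.06), with edgeR's adjusted p of 0.0226, 0.0109 and 0.00149. The tendon call was lost without WT 1, WT 2 or F592A 2 (edgeR's adjusted p of up to 0.0826), and the adventitial call without F592A 1 (edgeR's adjusted p = 0.0531).

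Sod3 had its highest level in adventitial spots, at 231 and 232 CPM in WT 1 and WT 2 and at 300 and 428 CPM in F592A 1 and F592A 2, above tendon, the next class, in 4 of 4 sections. Its log2 fold change against the other spots was 0.82 ± 0.10 (edgeR's adjusted p = 0.000968). Tendon spots were higher than the other spots too (0.36 ± 0.08, edgeR's adjusted p = 0.0155, or 0.0807 without F592A 2), but scar spots were lower (−0.35 ± 0.08, edgeR's adjusted p = 0.00661, or 0.0515 when classes were made without the cartilage list). The lowest classes were slow muscle at 36.6 to 51.0 CPM, fast muscle at 39.7 to 70.9 CPM and epidermis at 67.8 to 118 CPM. Epidermis lay above fast muscle in 4 of 4 sections. Against the other spots the values were −1.51 ± 0.23 in epidermis and −1.37 ± 0.21 in fast muscle (−1.99 by total UMIs alone). Each fit has its own scaling, so these 2 values do not rank the classes. The tendon, macrophage and Sox9-led classes, with means of 221, 212 and 209 CPM, could not be put in order, since each was above the next in 2 or 3 of 4 sections.

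Gpx3 was higher in tendon and scar than in the other spots, at log2 fold changes of 0.53 ± 0.13 in tendon (edgeR's adjusted p = 0.0231) and 0.50 ± 0.10 in scar (edgeR's adjusted p = 0.00227). Tendon and other spots were at 760 against 501 CPM in WT 1 and 1274 against 730 in WT 2. In F592A 1 and F592A 2 they were closer in value, at 394 against 331 and 269 against 250.5 CPM (class by group term, edgeR's adjusted p = 0.132). The tendon call was lost without WT 1 or without WT 2 (edgeR's adjusted p of up to 0.0886). It was lower in epidermis (−2.29 ± 0.21, edgeR's adjusted p = 9.3e-08), fast muscle (−0.69 ± 0.17, edgeR's adjusted p = 0.00299, or −1.31 by total UMIs alone) and, in contrast to Sod3, adventitial spots (−0.44 ± 0.12, edgeR's adjusted p = 0.0485). That last call was lost without WT 2, F592A 1 or F592A 2 and with a class ratio of 0.4 (edgeR's adjusted p of up to 0.168). Gpx3 had its highest mean in adipose spots, 715 ± 659 CPM (SD, n = 4), but this rests on WT 2 at 1704 CPM, since the other 3 sections were at 372 to 403 CPM. The order of adipose, tendon and scar spots was not resolved, each lying above the next in 2 of 4 sections.

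Gpx1, like Sod3, was highest in adventitial spots, at 420, 423, 520 and 556 CPM. That is 0.48 ± 0.08 on the log2 scale against the other spots (edgeR's adjusted p = 0.00335). Macrophage spots came next at 404, 403, 490 and 438 CPM (0.22 ± 0.06, edgeR's adjusted p = 0.0317), a call that did not hold without WT 2, F592A 1 or F592A 2, with no filter or without the cartilage list (edgeR's adjusted p of up to 0.111). Fast muscle spots were low at 140, 170, 134 and 128 CPM (−0.81 ± 0.13, edgeR's adjusted p = 0.000125, or −1.43 by total UMIs alone), and slow muscle spots held 65.2 to 185 CPM. Epidermis spots were lower as well (−0.58 ± 0.17, edgeR's adjusted p = 0.0120), which was lost without F592A 2 (edgeR's adjusted p = 0.116) and with scaling by total UMIs alone (edgeR's adjusted p = 0.0811). Scar spots, called lower for Sod3, were at 0.14 ± 0.06 for Gpx1 (edgeR's adjusted p = 0.0827, or 0.0384 with a class ratio of 0.4).

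Among the 9 described classes Cat was highest in slow muscle and adipose spots. Slow muscle spots were at 241, 265, 232 and 272 CPM and adipose spots at 244, 170, 236 and 175 CPM. The 7 other described classes had means of 87.2 to 117 CPM. Slow muscle and adipose held too few spots to be tested, and the order of the pair was not resolved (2 of 4 sections). Nerve spots, left out of the description with as few as 13 spots in a section, held Cat at 169.8, 164.6, 214.5 and 135 CPM. Among tested classes Cat was higher in scar (0.24 ± 0.06, edgeR's adjusted p = 0.00967) and lower in macrophage spots (−0.30 ± 0.07, edgeR's adjusted p = 0.0169). The macrophage call was lost without F592A 1 or F592A 2 and with scaling by total UMIs alone (edgeR's adjusted p of up to 0.0732).

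Sod1 was the most even of the 6, with class means of 220 to 255 CPM in 7 of 9 classes. The exceptions were adipose spots at 308 to 429 CPM and epidermis at 98.8 to 179 CPM (−1.12 ± 0.19, edgeR's adjusted p = 0.000105). Sod1 and Cat were also called higher in fast muscle, at 0.53 ± 0.11 (edgeR's adjusted p = 0.000795) and 0.34 ± 0.11 (edgeR's adjusted p = 0.0164), but this depends on the scaling. Scaling by total UMIs alone in place of trimmed means moved the median log2 fold change of all genes there from −0.06 to −0.68 (from 4239 higher and 4262 lower calls to 2025 and 8877). Relative to total UMIs, Sod1 was at −0.09 (edgeR's adjusted p = 0.476) and Cat at −0.28 (edgeR's adjusted p = 0.0429), so their direction in fast muscle flips. With trimmed means and for Cat, fast muscle spots against other spots no longer passed without WT 2, without F592A 2 or with no filter (edgeR's adjusted p = 0.0591, 0.141 and 0.0505). The other members kept their direction and call there, with Sod2 at 1.39, Gpx3 at −1.31, Gpx1 at −1.43 and Sod3 at −1.99 by total UMIs. In plain CPM Cat was at 89.4, 93.2, 72.8 and 93.3 in fast muscle and 120, 108, 103 and 92.4 in the other spots.

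**Figure D5:**
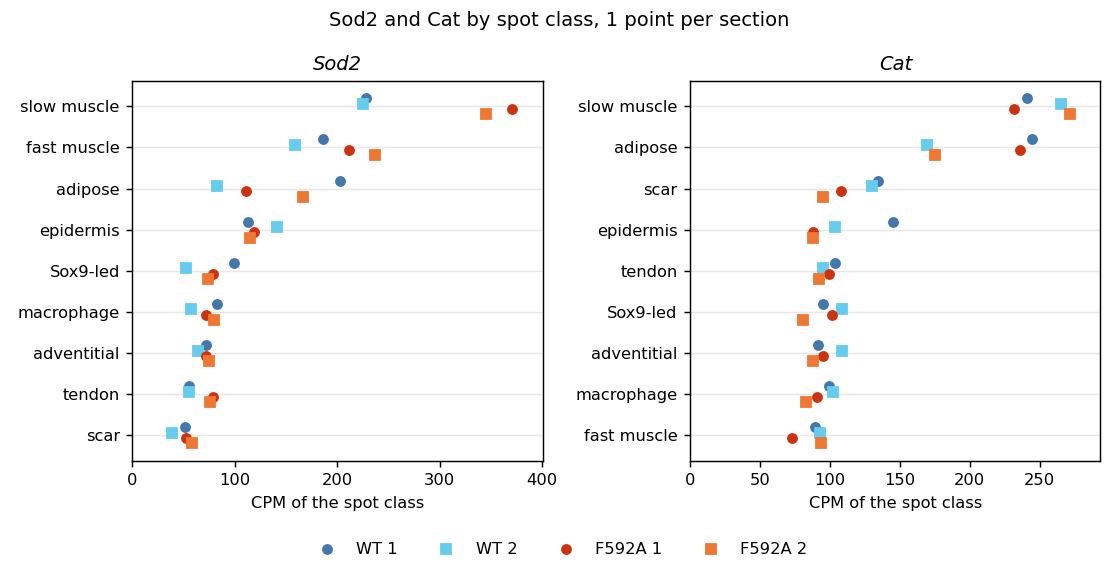
Sod2 (left) and Cat (right) CPM of each section (points) in 9 spot classes (rows, ordered by their mean over the 4 sections; horizontal axis from 0). Sod2 is highest in the muscle classes, at 159 to 371 CPM, and Cat in slow muscle and adipose spots, at 170 to 272 CPM.

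The levels of the 6 genes, as log2(CPM + 1), were also compared with those of 7119 genes over 37 sums, each the spots of a section in a class. The sums share sections, depth and tissue, so the correlations are descriptions without a p. Sod2 ran with genes of mitochondrial energy metabolism, namely Cs, citrate synthase (r = 0.960), Ndufb5, a subunit of respiratory complex I (r = 0.959), and Acadm, a fatty acid dehydrogenase (r = 0.959). Sod3 was most like Fxyd5 (r = 0.959), Prelp, a matrix proteoglycan (r = 0.946), and Ecm1 (r = 0.932), which is itself a marker of the adventitial class. Gpx3 was most like Chrdl1, an inhibitor of bone morphogenetic proteins (r = 0.909), Thra, a thyroid hormone receptor (r = 0.866), and Igfbp4, a binding protein of insulin-like growth factors (r = 0.861).

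Gpx1 was nearest to the ribonuclease Rnase4 (r = 0.951), the calcium-binding protein gene S100a11 (r = 0.949) and Hmgn3 (r = 0.948). Cat was nearest to Lpl, lipoprotein lipase (r = 0.770), and Slc27a1, a fatty acid transporter (r = 0.761), followed by Cox19 (r = 0.747). Sod1 had Scarb1 (r = 0.863), Cd93 (r = 0.862) and Cdc42ep2 (r = 0.850). Among the 6 themselves, Sod3 and Gpx1 were most alike (r = 0.855) and Sod2 and Gpx1 most opposed (r = −0.822). The secreted pair Gpx3 and Sod3 had r = 0.493.

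The wider antioxidant system was read from 11 lists of 76 genes, 73 of them tested in whole sections. By edgeR 0 of the 73 passed, with 11 at an unadjusted p under 0.05, and DESeq2 called 4 (Txn1, Hmox1, Nfkbia and Il1b). The other glutathione peroxidases (4 tested of 6) had a median log2 fold change of 0.00 beside −0.00 for all genes, and Gpx4, which protects membrane lipids, was at 356, 314, 310 and 307 CPM in the order of sections. Gpx5 and Gpx6 had no UMI in any section. The peroxiredoxins with sulfiredoxin, which also reduce peroxide, had a median of 0.15, 5 of 7 positive, with Prdx1 at 571, 540, 672 and 640 CPM (0.22 ± 0.13, edgeR's adjusted p = 0.577). The thioredoxin system had a median of 0.05 over 6 genes. Its Txn1, the thioredoxin that recharges peroxiredoxins, was at 206 and 208 CPM in WT and 296 and 321 CPM in F592A (0.55 ± 0.11, edgeR's adjusted p = 0.203).

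Metallothioneins, small proteins that bind zinc and copper, had the highest median of the 11 lists, 0.55 over 3 genes, and 0 passed. That median is the value of Mt2 (0.55 ± 0.50). The groups of Mt2 overlapped, at 285 and 85.2 CPM in WT and 240 and 306 CPM in F592A. Mt3 was at −0.385 ± 0.92. Mt1 was at 313 and 183 CPM in WT 1 and WT 2 and at 401 and 414 CPM in F592A 1 and F592A 2 (0.70 ± 0.24, edgeR's adjusted p = 0.364). The list of Nrf2, the transcription factor that switches on antioxidant genes, had a median of 0.06 with 6 of 9 positive. Its target Hmox1, which breaks down haem, was at 29.5 and 29.8 CPM in WT and 47.2 and 40.7 CPM in F592A (0.55 ± 0.12, edgeR's adjusted p = 0.224), and Nqo1 was at −0.45 ± 0.18 (edgeR's adjusted p = 0.428). Glutathione synthesis and recycling had a median of −0.11 over 7 genes, selenoprotein supply 0.07 over 9, copper delivery with Sod3 partners 0.07 over 5, and peroxisome import and oxidases 0.14 over 6.

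The sources of superoxide and peroxide had a median of 0.10 over 9 genes. Cybb, the catalytic subunit of the phagocyte oxidase, was at 58.1 and 72.0 CPM in WT and 51.0 and 47.8 CPM in F592A (−0.42 ± 0.15, edgeR's adjusted p = 0.374). Xdh, xanthine dehydrogenase, was at 18.7 and 17.8 CPM in WT and 25.4 and 24.4 CPM in F592A (0.43 ± 0.10, edgeR's adjusted p = 0.234). The NF-kB inducible genes, a class to which Sod2 is known to belong, had a median of 0.07 over 8 genes. Within the 7 classes edgeR called 1 list gene, Nfkbia, the inhibitor of NF-kB, in fast muscle spots, where it rose from 122 and 114 CPM in WT to 231 and 274 CPM in F592A (1.12 ± 0.16, edgeR's adjusted p = 0.0445). DESeq2 called Nfkbia there too, and also Txn1 in adventitial spots, Txn1 and Il1b in tendon spots and Mt1 in scar spots.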

How the data were processed

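Visium libraries of 4 tendon sections, 2 per group, were analysed as section sums, the section being the replicate. The authors deposited raw UMI counts per gene and spot, made with Space Ranger 1.3.0 per the file headers, with mm10 and Seurat 3 named in the submitters' processing notes. Spots with at least 500 UMIs were kept. Each spot took the class of the marker list with the highest ratio to that list's 99th percentile over all spots, if at least 0.2. Classes with 50 spots in every section were tested, and with 20 described. No doublet caller was run, since spots hold several cells. Sums were fitted over all genes passing filterByExpr with edgeR 4.0.16 quasi-likelihood tests (R 4.3.3, trimmed-mean scaling, Benjamini-Hochberg adjusted p under 0.05), and class against other spots with the section as a block. DESeq2 1.42.0 was an alternative. The SE is the log2 fold change over the root of F. CPM is UMIs per 1000000 UMIs of the sum. The fits were tested on simulated data, with changes put only in genes with a mean count over 50. Each simulated gene had the spread of edgeR's trend for its level and none of its own. The shares recovered are therefore not the power for the members. Of 2-fold changes put in, 72% were recovered in whole sections and 83% within adventitial spots. For fast muscle, 89% were recovered against the other spots and 52% in the class by group term. False calls were 3 of 16124 genes, 17 of 12907, 10 of 14600 and 2 of 15267, in the same order. With 2 values per group the number of sections limits the precision, and in epidermis spots the depth does too.

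The genes, lists and tests were chosen with earlier results of these data known. Named were the 6 members, of each pathway list those passing and up to 3 with the smallest p, and the 3 genes most like each member (Pearson's r of log2(CPM + 1) over genes with a mean of at least 20 CPM). Prdx1, Gpx4 and the class marker genes describe lists and classes. Alternatives covered scaling, filters, class ratios, spot depth, left-out genes, spots and sections, and a replicate block. The scaling by total UMIs and the crossed block were added after seeing the data.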

Additional observations from a re-analysis of the deposited data

Results flagged for a closer look

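Effects of the group differed between fast muscle spots and the other spots of the same sections for both secreted enzymes, by the class by group term of the same fit. For Sod3 the difference of log2 fold changes was −1.27 (edgeR's adjusted p = 0.000548), with muscle lower and the other tissue higher in F592A in value. For Gpx3 it was 0.79 (edgeR's adjusted p = 0.0280), with the other tissue lower in F592A and muscle nearly level in 3 of 4 sections.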

How the results depend on the processing

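Every comparison of groups is limited by having 2 sections per group, and in epidermis spots also by counts, with 21 to 46 UMIs of each member in WT 2. Of 1307 alternative values for single genes, 1198 kept their direction and side of the threshold, 48 newly passed, 30 no longer passed and 31 changed sign. Calls in whole sections, 0 of 6, were 1 with DESeq2, 2 with no filter on low counts and 0 to 1 with a section left out, the lone section then being assumed to vary like the other group. Calls within classes, 1 of 42, were 7 with DESeq2, 10 with no filter and 1 to 8 with a section left out. Class by group calls, 2 of 42, were 4 with no filter, 1 with a class ratio of 0.4, 1 with total UMIs and 1 to 3 with a section left out. The 24 class against other calls ranged from 17 to 25. Over all genes, the 13 calls in whole sections were 5 with DESeq2's size factors in edgeR, 418 with DESeq2, 546 with no filter, 4 without mitochondrial, haemoglobin and muscle genes, 1 without muscle spots and 0 to 390 with a section left out. The cause was not tested.

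The replicate numbers only share a number: over 2 pairs the deviations of same-numbered sections had r = −0.135. With the replicate block the calls within classes were 2 (Gpx3 and Sod3 in tendon spots, edgeR's adjusted p = 0.0387 and 0.0239), and Gpx3 in adventitial spots was at −1.51 (edgeR's adjusted p = 0.135). In whole sections the block left 0 calls, and 7 over all genes. With the numbers crossed there were 1 call in whole sections and 3 within classes.

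With total UMIs Sod1 was at 0.0116 between groups in tendon spots, and against other spots at −0.0162 in scar, −0.0911 in fast muscle and 0.11 in macrophage spots, with Cat at −0.28 in fast muscle. The same scaling moved the median of all genes against other spots from −0.08 to 0.12 in epidermis and from −0.00 to 0.11 in macrophage spots. The higher and lower calls moved from 1306 and 1470 to 674 and 2179 in tendon, from 2831 and 3265 to 2142 and 3782 in scar, from 2944 and 3442 to 3811 and 2591 in epidermis, and from 1562 and 1737 to 2487 and 1177 in macrophage spots. Sod1 in adventitial against other spots was at −0.0022 with no filter and −0.0056 without the cartilage list. Sod1 in macrophage against other spots was at 0.0101 without mitochondrial, haemoglobin and muscle genes and 0.0309 with a class ratio of 0.4, and between groups in fast muscle at 0.0141 with that ratio. Sod2 between groups in Sox9-led spots was at 0.0214 with no filter, 0.0342 with the replicate block, 0.0312 with it crossed and 0.0118 with total UMIs.

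With a section left out, the values between groups ranged for Sod1 from −0.0266 to 0.13 in adventitial, −0.12 to 0.0889 in fast muscle, −0.77 to 0.065 in epidermis and −0.22 to 0.0486 in Sox9-led spots. Those for Sod2 ranged from −0.0447 to 0.37 in macrophage and −0.34 to 0.45 in Sox9-led spots. Gpx3 in fast muscle ranged from −1.06 to 0.0029, Cat there from −0.24 to 0.0252, and Gpx1 in epidermis from −0.14 to 0.39. Sod1 against other spots ranged from −0.0243 to 0.0890 in adventitial and −0.0385 to 0.0237 in macrophage spots.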
